A study of Mus musculus with 19 samples.

Results

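The 32 genes described here encode proteins of the synaptic vesicle, the dense-core granule and the neuronal cytoskeleton, together with other proteins typical of neurons, and all 32 were measured with arrays in 4 embryonic mouse tissues. They were taken by name from the array's annotation and are 32 of the 17360 genes with a tested probe set. A probe set is the group of oligonucleotides that reads 1 transcript. Members had 67 probe sets, of which 66 passed a filter on low values. Each gene was represented by its brightest probe set over all 19 arrays, the UGM arrays included. All 32 members passed the filter, and 1 of them, Snap25, passed it only through the UGM arrays.

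The arrays profiled C57BL/6 embryos at embryonic day 16, all from the same strain and with no transgene or treatment named. Urogenital sinus epithelium (UGE, 6 arrays) and urogenital sinus mesenchyme (UGM, 5 arrays) are the layers from which the prostate forms, and were parted with trypsin. Epidermis (4 arrays) and dermis (4 arrays) came from back skin of the same embryos, held in dispase in the cold overnight and peeled apart by hand. Each array read RNA pooled from several embryos. Since the method of separation changed with the site, the 2 cannot be told apart. The arrays were labelled as biological replicates. In such bulk samples fewer cells of a type and less RNA per cell cannot be told apart either.

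Neurons release transmitter when a vesicle docks at the membrane, SNARE proteins such as SNAP-25 zip it to that membrane, and calcium binding to a synaptotagmin triggers fusion. Peptides and amines are kept in larger dense-core granules filled with granins. The axon is held by microtubules, which carry neuron-specific tubulin, doublecortin and stathmins, and by neurofilaments. The pelvic organs receive their nerves from autonomic ganglia that lie in the mesenchyme beside the urogenital sinus, while back skin is reached by axons whose cell bodies lie outside it. Because the transcripts of a neuron are mostly in its cell body, these genes are a common reading of neuronal RNA in a dissected tissue. The series was made to find transcripts that part UGE from UGM and are not shared with the layers of the skin, and the question here is how the neuronal genes fall in that comparison.

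A pair of short elements is often discussed for such genes, so the promoters come before the values. RE1 is the element bound by REST, a repressor of neuronal genes outside neurons, and was searched as the 7 letters CAGCACC, then 2 bases, then the 6 letters GGACAG, with at most 2 mismatches on either strand. CRE, the element bound by CREB, was searched as TGACGTCA and was added after values had been seen. RefSeq windows of 300 bases (GRCm38.p6, 250 before to 50 after a transcript start) were at hand for 23 of the 32 members. An RE1 match lay in 2 of these 23 genes, Syn1 and Celsr3, and in 2.22% of all 27025 genes with a window. A CRE match lay in 3 of the 23, Chgb, Scg2 and Syn1, and in 2.03% of all genes. The stretches that hold the matches came from a vesicle gene, an adhesion receptor and a pair of granins. All of these genes were higher in UGM than in UGE, but so were 30 of all 32 members. Almost any member with a match would therefore have been higher in UGM. Whether the elements go with the level in UGM was not tested. Capitals mark the matches, and the strand is that of the gene.
Syn1, chrX:20921040-20921168, minus strand, RE1 then CRE: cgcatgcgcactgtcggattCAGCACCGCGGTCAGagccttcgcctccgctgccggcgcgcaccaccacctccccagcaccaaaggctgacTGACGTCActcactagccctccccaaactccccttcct
Celsr3, chr9:108825890-108825964, plus strand, RE1: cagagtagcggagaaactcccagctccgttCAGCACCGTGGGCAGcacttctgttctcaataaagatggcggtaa
Chgb, chr2:132781540-132781607, plus strand, CRE: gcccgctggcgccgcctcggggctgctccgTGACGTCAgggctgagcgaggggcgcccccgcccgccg
Scg2, chr1:79440057-79440124, minus strand, CRE: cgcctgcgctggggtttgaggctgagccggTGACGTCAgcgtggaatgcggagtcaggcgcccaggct
The RE1 matches of Syn1 and Celsr3 began 230 and 125 bases before the start, with 1 mismatch each. At most 1 mismatch was found in 61 of 32851 windows (0.186%). The CRE matches began 159 bases before the start of Syn1, 72 before that of Chgb and 68 before that of Scg2, and CRE reads the same on both strands. No RE1 match overlapped a CRE match. A match is a run of letters and not a site shown to be bound.

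In the urogenital sinus, 30 of the 32 members were higher in UGM than in UGE, and none was higher in UGE. All counts of members higher in UGM, here and below, include Snap25, which passed the filter only through UGM and so had to differ. Here and below a gene is called where limma's adjusted p is under 0.01 and the difference is more than 2-fold. Of all 41549 tested probe sets, 7.4% were called higher in UGM and 5.85% lower. Of all 17360 genes, each read by its brightest probe set as the members were, 1741 were called higher in UGM and 1172 lower. The median difference of the members was 3.35 log2 units, against -0.06 over all tested probe sets. Every UGM array lay above every UGE array for 29 members, as it did for 12.3% of all tested probe sets. Among the 30, the groups overlapped for Uchl1, and the 2 members not called were Syt5 and Unc13a. At an unadjusted limma p under 0.05 no member was lower in UGM, and the methods' t-test, the study's own unpaired test run on the same values, called 30 higher and none lower.

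**Figure D1:**
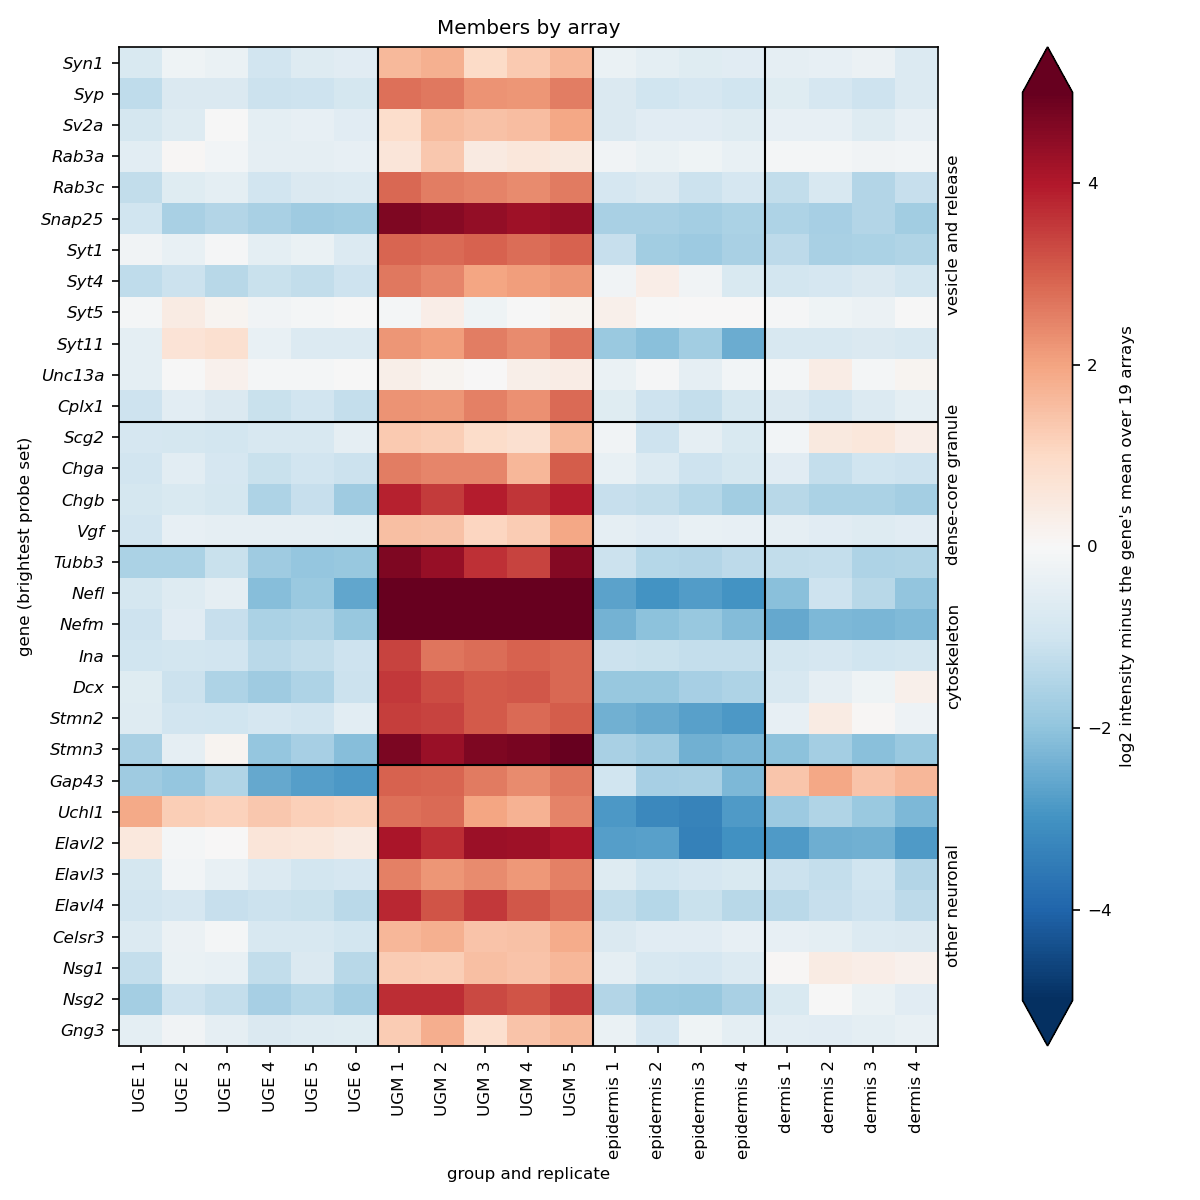
Heat map of the 32 members (rows, by role) over the 19 arrays (columns, by group and replicate). Colour is the log2 intensity minus the gene's mean over all 19 arrays, and values beyond 5 log2 units, such as those of Nefl and Nefm in UGM, share the end colour. The 5 UGM arrays are red for nearly all rows, while Gap43 is red in dermis too and Uchl1 and Elavl2 part UGE from the skin.

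The vesicle and release genes were called in 10 of 12 cases, with a median difference of 2.87 log2 units (range 0.0034 to 5.98). Snap25, the SNARE of the presynaptic membrane, read 9.93, 9.83, 9.66, 9.50 and 9.62 in UGM replicates 1 to 5, and in UGE its lowest, median and highest values were 3.49, 3.64 and 4.28. It read 3.64, 3.65, 3.58 and 3.68 in epidermis and 3.74, 3.62, 3.79 and 3.55 in dermis. The UGM arrays stood alone, and the other 14 arrays lay under the lower quartile of all probe sets on an array, which was 4.70 to 4.92. Since Snap25 passed the filter only through UGM, it had to differ there, and no test is given. The measured difference between UGM and UGE was 5.98 ± 0.14 log2 units (± SE, n = 5 and 6). With each UGE value raised to the lower quartile of its array, a stand-in for background chosen after the values were seen, Snap25 was higher in UGM by at least 4.93 log2 units, or at least 30.4-fold. The values in epidermis and dermis, both under that quartile, were not ordered.

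Other membrane proteins of the vesicle followed in the same direction. Syp, which encodes synaptophysin, read 9.50, 9.38, 8.97, 8.93 and 9.30 in UGM and 5.45, 5.78 and 6.02 (lowest, median, highest) in UGE, a difference of 3.44 ± 0.14 log2 units (adjusted p = 2e-09). The smaller differences were those of Sv2a, a vesicle glycoprotein (1.99 ± 0.18), and Syn1, the synapsin that tethers vesicles to the cytoskeleton (2.05 ± 0.17). Syn1 read 7.89, 8.07, 7.25, 7.58 and 7.96 in UGM against 5.32, 5.67 and 6.07 in UGE, so that its groups did not overlap. Cplx1, whose product complexin clamps the SNARE complex, was higher by 3.33 ± 0.15 log2 units (adjusted p = 4.98e-09).

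The Rab3 GTPases and the synaptotagmins did not move as blocks. Rab3c was higher in UGM by 3.36 ± 0.14 log2 units, and Rab3a by 1.01 ± 0.17 (adjusted p = 0.000455). Rab3a read 10.50, 11.22, 10.32, 10.43 and 10.39 in UGM and 9.34, 9.46 and 9.93 in UGE. It sat just over the 2-fold limit, and it was no longer called without UGM 2, without UGE 1, 4, 5 or 6, or when 50 was added to the intensities. Among the calcium sensors, Syt1 was higher by 3.24 ± 0.11 (adjusted p = 5.88e-10). Syt4, a synaptotagmin of vesicles and granules, was higher by 3.46 ± 0.12. Syt11, which encodes a synaptotagmin with no calcium-sensing role, was higher by 2.51 ± 0.29.

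Syt5 and Unc13a were the members called in no comparison of this series. Syt5, another calcium sensor, read 6.45, 6.86, 6.31, 6.51 and 6.68 in UGM and 6.37, 6.47 and 6.94 in UGE, 6.79, 6.49, 6.57 and 6.53 in epidermis and 6.47, 6.31, 6.24 and 6.52 in dermis. The groups overlapped throughout, with a UGM minus UGE difference of 0.0034 ± 0.13 log2 units (adjusted p = 0.988). Unc13a, the priming factor Munc13-1, read 5.10, 4.95, 4.80, 5.09 and 5.17 in UGM and 4.31, 4.73 and 5.01 in UGE, a difference of 0.31 ± 0.12 (adjusted p = 0.0605). It lay between 4.35 and 5.18 in the skin arrays, and each of the 2 genes has 1 probe set.

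All 4 dense-core granule members were higher in UGM, with a median of 2.65 log2 units. Chgb, a granin that fills the granule, read 10.25, 9.91, 10.36, 9.99 and 10.34 in UGM and 4.62, 5.39 and 5.65 in UGE. Its difference of 4.92 ± 0.19 (adjusted p = 1.42e-09) was the largest of the 4. Chga, the related chromogranin A, was higher by 3.33 ± 0.20, with UGM 4 lowest at 7.35 and UGM 5 highest at 8.72.

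Vgf, a neuropeptide precursor induced by nerve growth factor, was higher by 1.98 ± 0.15 log2 units. Scg2, the precursor of secretoneurin, read 6.39, 6.29, 5.99, 5.86 and 6.69 in UGM and 4.13, 4.24 and 4.63 in UGE, a difference of 1.97 ± 0.15 (adjusted p = 4.64e-07), or at least 1.46 with the UGE arrays, all under their lower quartile, raised to it. In skin Scg2 read 4.88, 4.04, 4.60 and 4.30 in epidermis and 4.91, 5.56, 5.63 and 5.38 in dermis. The dermis arrays thus lay above the epidermis arrays by a narrow margin, and the difference of 0.91 ± 0.21 was under 2-fold (adjusted p = 0.00698).

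The 7 cytoskeletal members had the larger differences. All 7 were higher in UGM, between 3.97 and 6.72 log2 units, with a median of 5.79. Nefl, the light neurofilament subunit on which the other subunits assemble, read 13.19, 12.97, 12.69, 12.63 and 12.79 in UGM and 4.94, 6.20 and 7.10 in UGE. The difference of 6.72 ± 0.36 (adjusted p = 2.38e-08) was a ratio of 105, the largest among the members. Nefm, the medium subunit, read 12.04, 11.91, 11.94, 11.94 and 11.95 in UGM and 4.94, 5.52 and 6.29 in UGE, a difference of 6.40 ± 0.20 (adjusted p = 3e-10). Ina, which encodes alpha-internexin, a filament protein of young neurons, was higher by 4.01 ± 0.13.

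The microtubule genes gave the same picture. Tubb3, the neuron-specific beta-tubulin, read 11.33, 11.02, 10.30, 10.05 and 11.26 in UGM and 4.73, 4.96 and 5.52 in UGE, a difference of 5.79 ± 0.24 (adjusted p = 2.86e-09). Stmn3, a stathmin that destabilizes microtubules, differed by 5.97 ± 0.37, and its UGE arrays ranged from 6.00 to 8.25. Dcx, the doublecortin of migrating neurons, differed by 4.44 ± 0.20, and Stmn2, a stathmin of growth cones, by 3.97 ± 0.13.

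The median difference of the cytoskeletal members was 2.92 log2 units above that of the vesicle and release members. Taken array by array against the UGE means, this gap was 3.23, 2.86, 2.38, 2.23 and 3.20 in UGM replicates 1 to 5 (SD 0.46, n = 5). It was positive in each UGM array and was smallest in UGM 3 and 4. With 50 added to the intensities the gap was 2.24, and with the granule genes counted as synaptic and Gap43 as cytoskeletal it was 2.49. A difference on an array also depends on how far each probe set can fall before it reaches background, so the gap is one of measured differences and not of transcripts per cell.

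The 9 other neuronal members were all higher in UGM, with a median of 3.0 log2 units (range 1.03 to 4.93). Gap43, a growth cone protein, differed by 4.93 ± 0.25, and Nsg2, an endosomal protein of neurons, by 4.90 ± 0.15. Of the neuronal RNA-binding proteins, Elavl4 differed by 4.37 ± 0.16, Elavl2 by 3.72 ± 0.16 and Elavl3 by 3.0 ± 0.15. Nsg1, a relative of Nsg2, differed by 2.30 ± 0.20, Celsr3, a cadherin that guides axon tracts, by 2.24 ± 0.16, and Gng3, a G protein subunit, by 1.91 ± 0.16.

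Uchl1 was set apart in this group. It encodes the ubiquitin hydrolase PGP9.5, much used to stain nerve fibres, and read 10.91, 11.01, 10.13, 9.92 and 10.66 in UGM. In UGE its values were 10.09, 9.40, 9.34, 9.51, 9.36 and 9.29 in replicates 1 to 6. UGE 1 lay above UGM 4, so the groups overlapped, and the difference of 1.03 ± 0.21 (adjusted p = 0.00234) was just over 2-fold. Uchl1 was not called without UGE 3, 5 or 6 or without UGM 1, 2 or 5, nor with 50 added to the intensities.

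**Figure D2:**
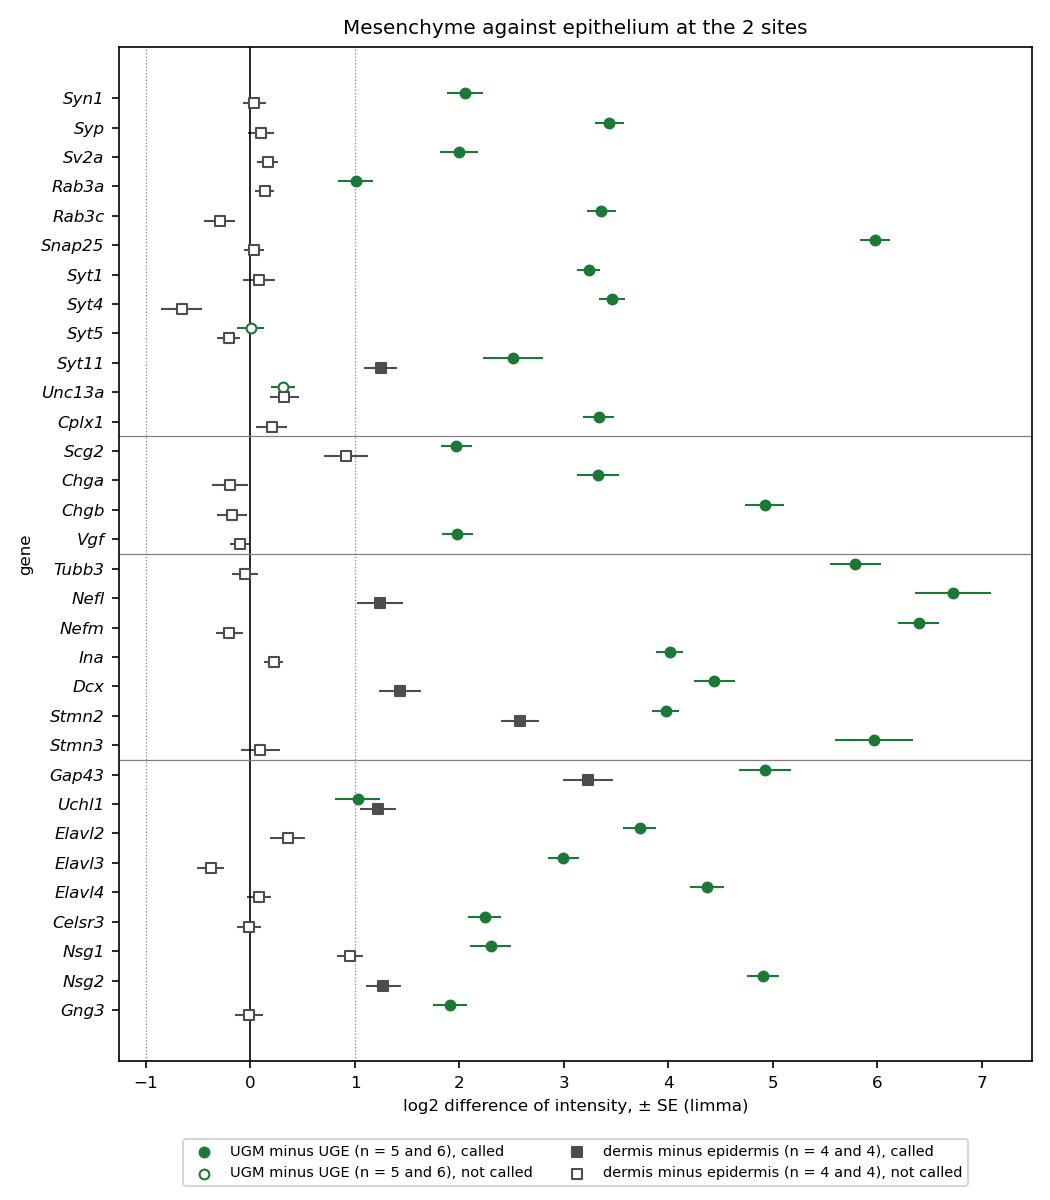
Differences of mesenchyme minus epithelium in log2 intensity for the 32 members, with UGM minus UGE as circles (n = 5 and 6) and dermis minus epidermis as squares (n = 4 and 4). Bars are ± SE from limma, filled symbols are called, and the dotted lines mark 2-fold. Circles reach 6.72 (Nefl), while most squares lie near 0 and 7 are filled, of which Gap43 (3.23) and Stmn2 (2.58) are the largest.

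In skin the members mostly did not pass the test. Of the 32, 7 were higher in dermis than in epidermis and none lower, while 7.6% of all tested probe sets were called higher in dermis and 6.07% lower. Of the 17360 genes, each by its brightest probe set, 1927 were called higher in dermis and 1014 lower. The median member difference was 0.10 log2 units. The dermis arrays lay wholly above the epidermis arrays for 11 members, against 16% of all tested probe sets, and wholly below for Elavl3. The 7 were Syt11 of the 12 vesicle genes, Nefl, Dcx and Stmn2 of the 7 cytoskeletal genes, and Gap43, Uchl1 and Nsg2 of the 9 other genes. None of the 4 granule genes was called by limma or the methods' t-test, and 1 of them, Scg2, was higher in dermis at an unadjusted p under 0.05. Over all 32 members, 11 were higher and 2 lower in dermis at that level, at which the share of all probe sets was not counted.

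Gap43 and Stmn2, both growth cone genes, had the largest differences in skin. Gap43 read 10.21, 10.74, 10.23 and 10.49 in dermis and 7.82, 7.16, 7.20 and 6.57 in epidermis, a difference of 3.23 ± 0.24 (adjusted p = 1.03e-05). Stmn2 read 8.45, 9.27, 8.93 and 8.63 in dermis and 6.47, 6.34, 6.17 and 6.00 in epidermis, a difference of 2.58 ± 0.18 (adjusted p = 8.34e-06). Dermis and epidermis did not overlap for either gene, and these were the 2 calls that stayed when evidence for more than 2-fold was asked of the test and when 50 was added.

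The other 5 skin differences were smaller. Dcx read 5.45, 5.78, 6.01 and 6.50 in dermis and 4.35, 4.36, 4.60 and 4.70 in epidermis (1.43 ± 0.20, adjusted p = 0.000446). Nefl read 5.47, 6.50, 6.17 and 5.58 in dermis and 4.89, 4.56, 4.76 and 4.56 in epidermis (1.24 ± 0.22, adjusted p = 0.00159). Their epidermis arrays all lay under the lower quartile, and raised to it they gave differences of at least 1.08 for Dcx and 1.07 for Nefl. In dermis both genes lay far under their own levels in UGM. Syt11 (1.25 ± 0.15), Nsg2 (1.27 ± 0.17) and Uchl1 (1.22 ± 0.17) complete the list. Nsg1 differed by 0.95 ± 0.12, under 2-fold, and without epidermis 1 or dermis 1 both Nsg1 and Scg2 were called, which made 9.

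Markers of the opposite layer were read beside the skin values. A list of 11 epithelial markers had a median level of 7.91 to 10.06 log2 units in the dermis arrays, against 6.57 to 8.24 in UGM and 11.81 to 12.56 in epidermis. A list of 11 mesenchymal markers had a median of 9.51 to 10.75 in epidermis, against 5.84 to 8.62 in UGE and 12.15 to 12.79 in dermis. The part of these markers' transcripts in the skin values of the members was not tested.

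The difference between layers was larger in the urogenital sinus than in skin for 27 members in the interaction of site and layer, from a fit of all 4 groups, and smaller for none, nor at an unadjusted limma p under 0.05. A larger difference was called for 1731 of all 41549 tested probe sets (4.17%), and a smaller one for 2139. Of the 17360 genes, each by its brightest probe set, 940 were called larger and 1308 smaller. Snap25, which passed the filter only through UGM, is among the 27. The 27 were 8 of 12 vesicle genes, all 4 granule genes, all 7 cytoskeletal genes and 8 of the 9 others, with a median of 3.14 log2 units over the 32 members. Stmn3 (5.87 ± 0.49, adjusted p = 3.97e-08) and Tubb3 (5.84 ± 0.32) were among those with large values, as were Nefm and Snap25, whose values depend on levels near or under the lower quartile and are not ranked. For Scg2 (1.06 ± 0.26, adjusted p = 0.00647) the call was lost with quantile normalization, with 50 added, with the replicate block, when more than 2-fold was asked of the test, and without UGE 1, 2, 3, 4 or 5, UGM 1, 2 or 5, epidermis 1 or 3, or dermis 1 or 4. Of the 7 genes called in both sites, Nefl (5.48), Nsg2 (3.63), Dcx (3.01), Gap43 (1.70) and Stmn2 (1.40) still differed more in the urogenital sinus, while for Syt11 (1.26 ± 0.38, adjusted p = 0.0234) and Uchl1 (-0.19 ± 0.30, adjusted p = 0.762) this was not shown. The call of Stmn2 rests on its brighter probe set, since the dimmer one gave -0.37 ± 0.30 (adjusted p = 0.486). The other genes not called were Rab3a (0.87 ± 0.21), Syt5 (0.21 ± 0.18) and Unc13a (-0.01 ± 0.19). The 2 lists of layer markers also parted more in the urogenital sinus than in skin. All 11 mesenchymal markers had a positive interaction (median 1.72 log2 units), and 1 was called. Of the 11 epithelial markers, 10 were called with a negative interaction (median -3.63). What part this has in the interactions of the members was not tested.

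UGM was next set against dermis, the other mesenchyme. UGM was higher for 28 members by limma and lower for none, nor lower at an unadjusted p under 0.05. Of all 41549 tested probe sets, 2818 (6.78%) were called higher in UGM and 2231 lower. Of the 17360 genes, each by its brightest probe set, 1176 were called higher and 1216 lower. The UGM arrays lay wholly above the dermis arrays for 30 members, against 16.5% of all tested probe sets. All 7 cytoskeletal and all 9 other neuronal members were called, as were 9 of 12 vesicle and 3 of 4 granule genes. Nefm read 4.28, 4.59, 4.57 and 4.64 in dermis, under the lower quartile of each array. Its measured difference was 7.43 ± 0.19 log2 units (limma adjusted p = 2.09e-15). With the dermis values raised to the quartile, Nefm was higher in UGM by at least 7.14 log2 units, a bound that was not tested. For Snap25, also under the quartile in dermis, the bound was at least 4.89. Nefl differed by 6.92 ± 0.35, Elavl2 by 6.68 ± 0.17 and Stmn3 by 6.62 ± 0.35.

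The smallest called difference between the mesenchymes was that of Gap43. It was 1.08 ± 0.27 log2 units (adjusted p = 0.00408), with every UGM array, from 11.17, above every dermis array, up to 10.74. It was not called without UGM 1, UGM 2, dermis 1 or dermis 3. Nsg1 differed by 1.16 ± 0.19. Rab3a (0.81 ± 0.15, adjusted p = 0.00036) and Scg2 (0.88 ± 0.19, adjusted p = 0.00116) were under 2-fold, with no overlap between the groups.

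**Figure D3:**
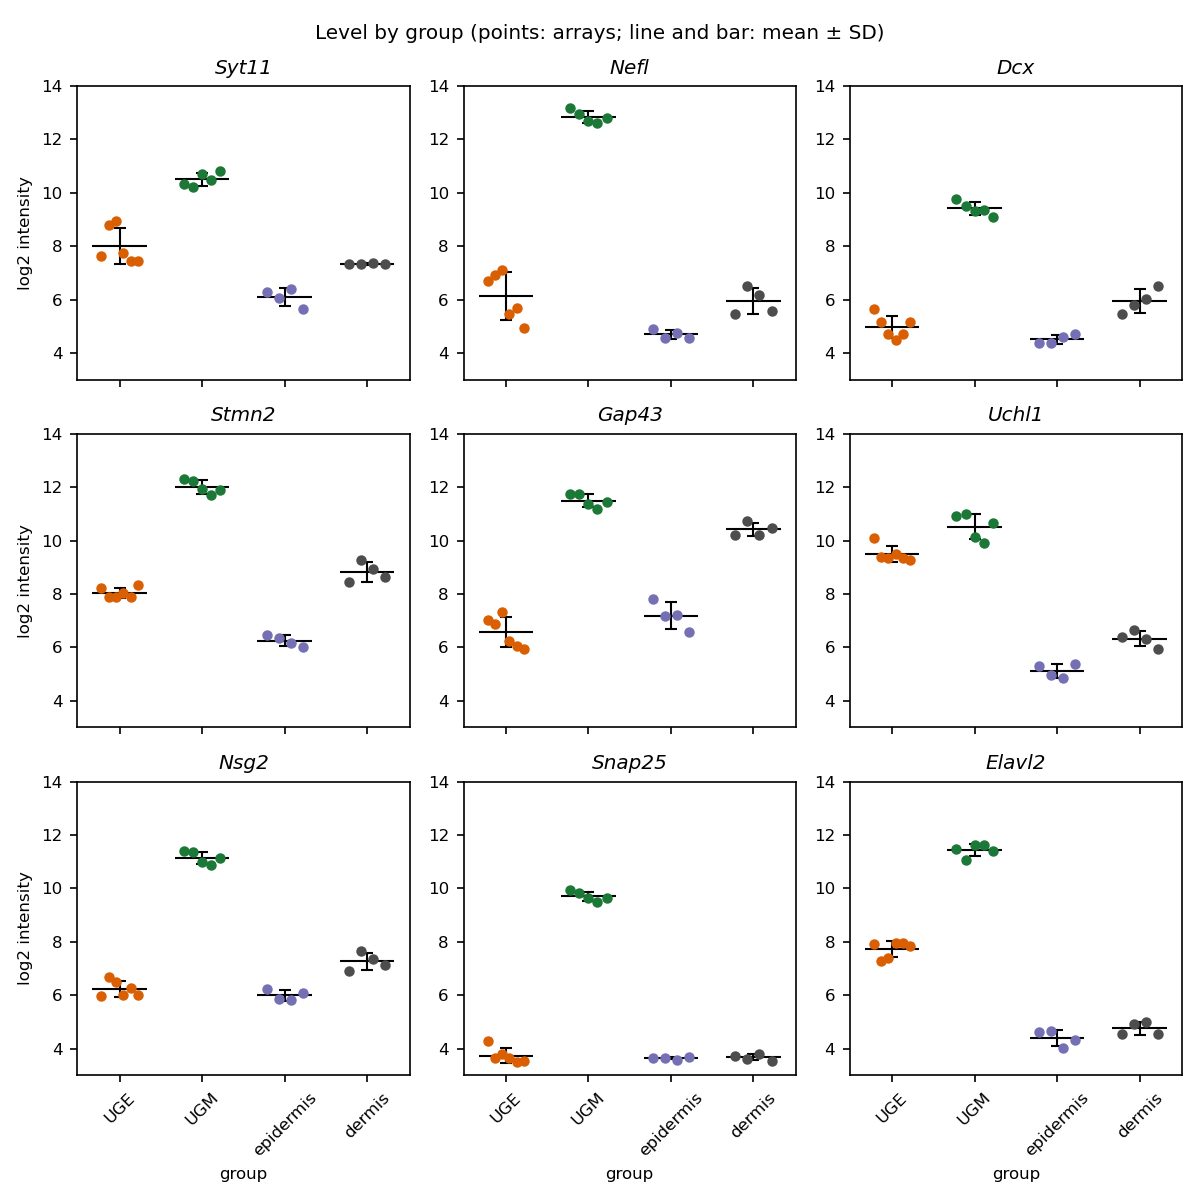
Log2 intensity of 9 members in UGE (n = 6), UGM (n = 5), epidermis (n = 4) and dermis (n = 4), with a point per array and the mean ± SD. The first 7 panels are the genes called in both sites, Gap43 in dermis reaching 10.74. Snap25 is near 4 outside UGM, and Uchl1 and Elavl2 are higher in UGE than in either skin layer.

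Between the epithelia most members were not called. UGE was higher than epidermis for 6 of the 32, against 6.98% of all tested probe sets, and lower for none, against 5.01%. At an unadjusted limma p under 0.05, 9 were higher and 2 lower in UGE. The share of all probe sets at that level was not counted. Of the 17360 genes, each by its brightest probe set, 1438 were called higher in UGE and 1063 lower. The UGE arrays lay wholly above the epidermis arrays for the same 6 genes, against 13.3% of all tested probe sets. Uchl1 differed most, by 4.39 ± 0.21 log2 units (adjusted p = 7.58e-12), with 5.29, 4.95, 4.84 and 5.36 in epidermis against at least 9.29 in UGE. Elavl2, the ELAV protein also known from gonads, read 7.27, 7.86 and 7.97 in UGE (lowest, median, highest) and 4.62, 4.65, 4.01 and 4.34 in epidermis, a difference of 3.32 ± 0.17 (adjusted p = 1.57e-11), or at least 2.86 with the epidermis arrays raised to their lower quartile. Uchl1, Elavl2, Elavl3 and Elavl4 all lay above the lower quartile of every UGE array, but Elavl3 and Elavl4 did not pass between the epithelia (0.17 ± 0.14 and 0.21 ± 0.15).

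The other genes higher in UGE were Syt11 (1.91), Stmn2 (1.80 ± 0.16), Nefl (1.44 ± 0.34, or at least 1.28 on the same terms) and Syt1 (1.24 ± 0.13). Syt4 ran the other way. It read 6.19, 6.73, 6.21 and 5.63 in epidermis and 5.01, 5.21 and 5.34 in UGE, with no overlap, but the difference of -0.99 ± 0.16 (adjusted p = 7.87e-05) was just under 2-fold. The other probe set of Syt4 gave -1.14 ± 0.19 (limma adjusted p = 9.79e-05) and was called lower in UGE. The probe set used here was also called lower without UGE 2, 4 or 6 or without epidermis 4.

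By level, the order of the groups was UGM first for 28 members, above both UGE and dermis in the tests. Below UGM, the order of UGE, epidermis and dermis was mostly not resolved. For Chga, for example, the means were 8.12 ± 0.49 in UGM (SD, n = 5), 4.79 ± 0.21 in UGE, 4.95 ± 0.28 in epidermis and 4.75 ± 0.26 in dermis, and the last 3 did not differ beyond their spread. Gap43 had a resolved order of UGM, then dermis (10.42 ± 0.25), then epidermis (7.19 ± 0.51) and UGE (6.57 ± 0.58), the last pair overlapping. In UGE 17 members lay under the array's median on all arrays, in epidermis 21, in dermis 19 and in UGM 1. An array has as many probe sets under its median as over it. The share of all probe sets under it on all arrays of a group was not counted.

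Arrays of 1 group differed among themselves in the low levels. In UGE, replicates 2 and 3 were the highest for 15 and 10 of the 32 members, and Syt11 and Stmn3 read 8.80 and 7.69 in UGE 2 and 8.94 and 8.25 in UGE 3, against at most 7.75 and 6.52 in the other UGE arrays. The mesenchymal marker list had medians of 8.62 and 8.56 in UGE 2 and 3, 7.61 in UGE 1 and 5.84 to 6.67 in the other UGE arrays. Without UGE 2 and 3, 29 members were called between UGM and UGE, the loss being Uchl1. In UGM, replicate 1 was highest for 14 members, replicate 5 for 11, and replicate 4 was lowest for 13.

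Further genes of the same machinery came from 3 lists, with 58 genes tested. Of these, 30 were higher in UGM than in UGE and 2 lower, with a median of 1.13 log2 units. By list these were 13 of 18 cytoskeletal genes, 6 of 9 granule genes, and 11 of 31 vesicle genes with 2 lower. Prph, the filament protein peripherin of peripheral neurons, differed by 6.20 ± 0.30 and Crmp1, a microtubule partner of growth cones, by 4.71 ± 0.30. Cadps, a granule priming factor, differed by 4.87 ± 0.30 and Pcsk1n, a convertase inhibitor, by 4.19 ± 0.26. Snap91, a clathrin adaptor of the synapse, differed by 5.15 ± 0.21 and Synpr, a relative of synaptophysin, by 3.65 ± 0.13. Rab3d, a Rab of secretory epithelia, was lower in UGM (-1.41 ± 0.12), as was Pclo, an active zone scaffold (-1.01 ± 0.22). In skin 15 of the 58 were higher in dermis and 4 lower. The interaction was called for 23 as larger in the urogenital sinus and 2 as smaller, and UGM exceeded dermis for 34 and lay under it for 1. UGE exceeded epidermis for 10 and lay under it for 2.

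Markers of cell types that could carry these transcripts were read on the same arrays. Of 11 autonomic neuron genes tested, 9 were higher in UGM than in UGE, and Prph is also one of the further cytoskeletal genes. The summed intensity of the list ran from 9199 to 12639 in UGM, 1032 to 1429 in UGE, 683 to 809 in epidermis and 1141 to 1336 in dermis. Prph has a large part in the UGM sums, since it read 11.85 to 12.31 log2 units there against list medians of 7.99 to 9.53. Phox2a, a transcription factor that defines autonomic neurons, read 9.60, 9.50, 9.61, 9.38 and 10.33 in UGM and at most 5.26 on the other 14 arrays (4.89 ± 0.19 between UGM and UGE). Th, the enzyme of catecholamine synthesis, was higher in UGM by 1.29 ± 0.23. In the dermis 2 of the 11 were higher than in epidermis, Ddc and Slc18a2, and UGM exceeded dermis for 8.

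Of 6 sensory neuron genes tested, 3 were higher in UGM than in UGE, namely Prrxl1, Scn9a and Tac1. The sums were 617 to 1565 in UGM, 219 to 273 in UGE, 245 to 265 in epidermis and 317 to 469 in dermis. Pou4f1, a defining factor of sensory neurons, lay between 4.36 and 5.39 on all arrays, with a UGM minus UGE difference of -0.39 ± 0.12 (not called), and the probe set of Trpv1 did not pass the filter.

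Of 7 Schwann cell and neural crest genes, 6 were higher in UGM than in UGE and 1, Erbb3, lower (-2.67 ± 0.12), and Sox10, the factor that defines glia of the crest, was higher by 2.26 ± 0.12. Between UGM and dermis 1 of the 7 was called, Fabp7, where 28 of the 32 members were. Sums ran from 3615 to 4458 in UGM, 2935 to 3501 in UGE, 2945 to 3173 in epidermis and 2277 to 2506 in dermis. What share of the members' differences goes with any of these lists was not tested.

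**Figure D4:**
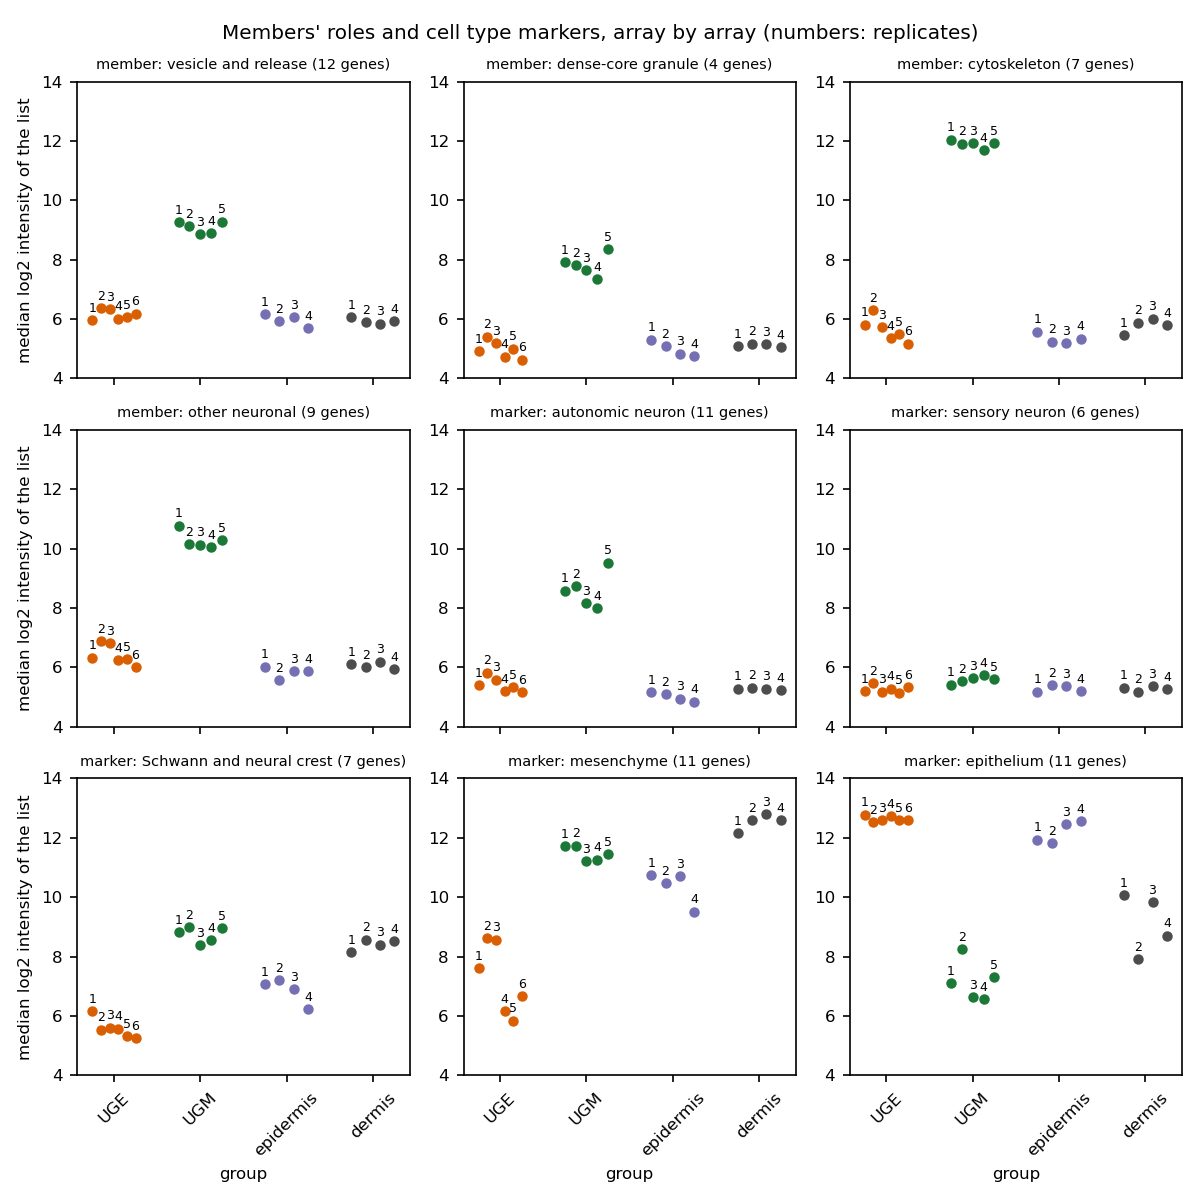
Median log2 intensity of the 4 role groups of members and of 5 marker lists, array by array (numbers are replicates). The 5 UGM arrays stand above all others for the 4 role groups and the autonomic list (7.99 to 9.53), the sensory list is nearly level, the Schwann and neural crest list is similar in UGM and dermis, and the mesenchyme and epithelium lists stand for the opposite layers.

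The remaining marker lists behaved as follows between UGM and UGE. All 5 endothelial genes were higher in UGM and in dermis, 6 of 8 skeletal muscle genes were higher in UGM and all 8 in dermis, and none of 6 melanocyte genes was called in the urogenital sinus by limma or the methods' t-test (1 higher and 1 lower at an unadjusted p under 0.05) while 4 were lower in dermis than in epidermis. Of 6 Merkel cell genes, 1 was higher in UGM and 1 lower, and 2 were higher in dermis than in epidermis. All 11 epithelial genes were lower in UGM and 8 in dermis, and all 11 mesenchymal genes were higher in UGM and 10 in dermis.

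REST, named above for its element, was measured too. Rest read 10.61, 10.59, 10.99, 10.86 and 10.76 in UGM and 10.56, 10.95 and 11.36 in UGE, a difference of -0.20 ± 0.14 (adjusted p = 0.305), and it lay between 10.03 and 10.74 in the skin arrays. None of 10 genes for REST and its cofactors was called between UGM and UGE or between dermis and epidermis by limma or the methods' t-test. Between the epithelia 1 of the 10 was called, Rcor1, lower in UGE (10.05 ± 0.47, SD, n = 6) than in epidermis (11.25 ± 0.36, n = 4) by limma (adjusted p = 0.000245). Rcor1, a REST corepressor, was named after its values were seen, and its highest UGE array (10.55) lay just under its lowest epidermis array (10.72). At an unadjusted p under 0.05, 2 of the 10 were higher and 4 lower in UGM, and 3 higher and 1 lower in dermis. Here too the share of all probe sets at that level was not counted.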

How the data were processed

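RNA of 19 samples was hybridised to Affymetrix mouse arrays of 45101 probe sets. The deposited values are linear intensities, 1 per probe set and array. The submitters' processing notes name GCOS 1.4. The study's methods describe scaling to a common target, detection calls and PLIER, without saying which one the deposited table holds. No scanner files were used here. Array medians lay between 6.25 and 6.35 log2 units, so no further normalization was applied.

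The 64 control probe sets were left out, and a probe set was kept with an intensity over 20 on at least 1 array (41549). Intensities were put on the log2 scale and fitted with limma 3.58.1 in R 4.3.3, UGE with UGM and epidermis with dermis in fits of their own and the other comparisons in a fit of the 4 groups. P-values were Benjamini-Hochberg adjusted over all tested probe sets, and calls needed an adjusted p under 0.01 and more than 2-fold, the thresholds the methods use with a t-test. The number of arrays limits the precision. Symbols came from the platform annotation (34945 probe sets with 1 symbol, 932 with several, 9160 with none), and only probe sets with 1 symbol were named. The script was tested on simulated data.

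Named were all members and the 2 called genes of each further list with the largest change in each direction between UGE and UGM. Also named were Rest, the 2 leading tested genes of each nerve-related marker list, and markers under the filter. Ddc, Slc18a2, Scn9a, Tac1, Fabp7 and Rcor1 fall outside this rule and were named because they were called. Marker lists for 3 nerve-related types are described by gene and the others by counts. The members and lists were chosen with earlier results of these data known. Some genes of the further and marker lists are not reported here.

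Replicate numbers were checked for pairing by the correlation of deviations from the group means. Same-numbered skin samples correlated at 0.343, 0.108, 0.264 and 0.168, and were taken as paired from these values alone. Dermis 3 and 4 correlated better with an epidermis sample of another number (0.299 and 0.184), so the pairing is uncertain. The skin calls given above come from a fit without pairing. Blocking on the number left the 7 skin calls as they were.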

Additional observations from a re-analysis of the deposited data

Results flagged for a closer look

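The difference between mesenchyme and epithelium was larger in the urogenital sinus than in skin by the interaction test for 27 members. Snap25, which passed the filter only through UGM and so had to differ there, is among the 27. In log2 units, this was 2.01 for Syn1, 3.34 for Syp, 1.83 for Sv2a, 3.66 for Rab3c, 5.94 for Snap25, 3.15 for Syt1, 4.12 for Syt4 and 3.13 for Cplx1 among the vesicle genes. It was 1.06 for Scg2, 3.53 for Chga, 5.10 for Chgb and 2.08 for Vgf among the granule genes. It was 5.84 for Tubb3, 5.48 for Nefl, 6.60 for Nefm, 3.79 for Ina, 3.01 for Dcx, 1.40 for Stmn2 and 5.87 for Stmn3 among the cytoskeletal genes. For the others it was 1.70 for Gap43, 3.37 for Elavl2, 3.37 for Elavl3, 4.29 for Elavl4, 2.26 for Celsr3, 1.34 for Nsg1, 3.63 for Nsg2 and 1.93 for Gng3.

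An array stood apart from its group in 6 of 128 gene and group pairs tested by Dixon's criterion, where chance marks about 1 in 20. Sv2a read 6.65 in dermis 3 against at least 6.88 in the other dermis arrays. Rab3a read 11.22 in UGM 2 against at most 10.50. Syt11 read 7.38 in dermis 3 against at most 7.33. Scg2 read 4.63 in UGE 6 against at most 4.24, Vgf read 5.10 in UGE 1 against at least 5.60, and Uchl1 read 10.09 in UGE 1 against at most 9.51.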

How the results depend on the processing

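The counts of members called kept within 1.5 times under most settings. Between dermis and epidermis 7 became 2 with 50 added before log2, 2 when the test asked for more than 2-fold, and 4 when every probe set of a gene had to be called. Between UGE and epidermis 6 became 3 when the test asked for more than 2-fold and 3 when every probe set had to be called. The cytoskeletal minus vesicle gap of 2.92 log2 units became 2.24 with 50 added. No member reversed. Leaving out single replicates gave 28 to 30 calls between UGM and UGE, 7 to 9 in skin, 26 to 27 in the interaction, 27 to 28 between UGM and dermis, 6 to 7 between UGE and epidermis, and a gap of 2.76 to 3.07. The Nefl call in skin was lost with the methods' t-test and with all 4 groups in 1 fit.

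With the replicate number as a block, 28 members were called between UGM and UGE (without Rab3a and Uchl1), 26 in the interaction (without Scg2), 28 between UGM and dermis and 8 between UGE and epidermis (Nefm higher and Syt4 lower added). In the fits of all 4 groups, this block also joined urogenital and skin samples of the same number, a link that was not checked. Same-numbered UGM and UGE samples correlated between -0.406 and 0.648, so there the samples share only a number, and 1 of 5 UGM samples correlated best with its own. Low intensities limit the smaller differences. Under the lower quartile on all arrays of the group lay 6 members in epidermis, 2 in UGE and 2 in dermis. In UGE 17 members lay under the array median on all arrays, but a median parts any array into equal numbers of probe sets.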

Other observations

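Other probe sets of the same members were read for 18 genes, 34 in all. Of these 23 were higher in UGM than in UGE, none was lower and 11 were not called. The highest intensity of the 11 on any array was 25.8 to 172 (median 41.4), while for the 23 it was at least 104 (median 604). This contrast is partly built in, since a call higher in UGM itself raises the highest intensity. An uncalled probe set of Cplx1 was level, with means of 7.10 in UGE, 7.14 in UGM, 7.15 in epidermis and 7.06 in dermis. These lay above the array medians of 6.25 to 6.35. Every probe set was called for 11 of the 18 genes. The 2 probe sets of Nefl, the light neurofilament subunit, both differed by 6.72 log2 units.

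The probe sets of Stmn2, the growth cone stathmin, gave unlike readings of the interaction. The dimmer one differed by 3.36 ± 0.27 between dermis and epidermis and by 2.99 ± 0.14 between UGM and UGE, with an interaction of -0.37 ± 0.30 (limma adjusted p = 0.486), where the brighter one gave 1.40 ± 0.23. For Syt11 in skin, 2 of 5 probe sets were called, at 1.25 and 1.16, and the others lay at 0.50, 0.20 and 0.05. For Rab3a the dimmer probe set gave an interaction of 1.19 ± 0.19 (adjusted p = 0.00011) and the brighter one 0.87 ± 0.21, which was not called.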
